A study of Mus musculus with 12 samples.

Results

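The mouse Fibrosis V2 panel of the NanoString nCounter, an assay that counts RNA with barcoded probes, holds the 4 lysosomal genes Lipa, Ctsb, Ctsl and Cd68. They were taken by symbol from the deposited table of values and are 4 of its 760 genes. The lysosome is the acidic compartment in which cells break down material that they have engulfed or recycled. Lipa encodes lysosomal acid lipase, which frees cholesterol and fatty acids from the cholesteryl esters and triglycerides that reach it. Ctsb and Ctsl encode cathepsins B and L, cysteine proteases that degrade proteins there. Cd68 encodes a heavily glycosylated membrane protein of late endosomes and lysosomes that is widely used to mark macrophages. Fat tissue of obese mice is known for macrophages that take up lipid and process it in lysosomes.

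The cells came from the mammary glands of female FVB/N mice whose diet was low-fat (2920X of Teklad Global) or high-fat (58Y1 of Test Diet), for 16 weeks from 3 weeks of age. Live CD45+ CD11b+ cells were sorted into CD34+ and CD34- populations, which the series describes as myeloid progenitor cells and as monocytes and macrophages, so the design compares diets within a population and populations within a diet. Each of the 4 groups held 3 samples, the labels name no transgene or deleted allele, and RNA of the sorted cells was amplified before counting. Replicate numbers are shared by the CD34+ and CD34- samples of a diet, and same-numbered samples of a diet deviated together, so they were treated as samples of the same mouse. The labels do not state this, and a mouse below means such a same-numbered pair. The CD34+ and CD34- comparisons and the comparisons of diets use the same 12 samples, so their results are not independent of each other.

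Values are on the log2 scale, as normalised per sample by the authors. Whole counts could be recovered from them, and total counts per library ran from 78316 to 780070. Counts of Lipa ran from 214 to 4583, those of Ctsb from 405 to 9692, those of Cd68 from 285 to 6503 and those of Ctsl from 24 to 1398, so Ctsl was measured with the widest counting error. The lowest Ctsl count was in the shallowest library, replicate 3 of the low-fat CD34- samples. Cd34, the gene of the sort marker, was lower in the low-fat CD34- than in the low-fat CD34+ samples (log2 difference -1.68, adjusted p = 0.0475) and not past the threshold on the high-fat diet (-0.34, adjusted p = 0.707), where CD34+ replicates 1 and 3 were at log2 values of 5.29 and 5.11 against 5.40 and 5.27 in the same-numbered CD34- samples and replicate 2 was at 6.44 against 5.14. Averaged over both diets with the mouse as a block, Cd34 was lower in CD34- cells (-1.01 ± 0.30, adjusted p = 0.0155). Marker genes of other cells also differed between the sorted populations, as given below, and bulk values cannot tell fewer cells of a type from less RNA per cell.

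The 250 bases before the start of a gene, from RefSeq on GRCm38.p6, are printed for Lipa and Cd68 because these genes differed in the same direction between the groups. RefSeq's table used here has no entry for Ctsb, and its window for Ctsl lies inside the annotated gene and is not shown. The windows are chr19:34527475-34527724 for Lipa and chr11:69666171-69666420 for Cd68, both on the minus strand, and capitals mark the matches described after them.
Lipa: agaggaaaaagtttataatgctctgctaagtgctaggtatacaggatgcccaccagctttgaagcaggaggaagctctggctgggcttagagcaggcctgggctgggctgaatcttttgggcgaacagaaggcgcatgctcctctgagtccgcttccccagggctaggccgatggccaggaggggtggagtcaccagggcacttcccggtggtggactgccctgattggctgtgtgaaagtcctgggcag
Cd68: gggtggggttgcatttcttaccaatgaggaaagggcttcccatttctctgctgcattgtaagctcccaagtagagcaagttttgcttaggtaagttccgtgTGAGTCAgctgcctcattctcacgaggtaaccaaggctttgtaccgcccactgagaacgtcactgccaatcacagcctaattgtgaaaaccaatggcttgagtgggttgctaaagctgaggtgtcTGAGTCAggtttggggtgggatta
Both strands were searched for 4 motifs, CACGTG, the core of the element bound by TFEB, a regulator of lysosomal genes, the CLEAR element, a longer palindrome around this core, GAGGAAGT for PU.1, a transcription factor of myeloid cells, and TGACTCA for AP-1. TGACTCA was found at 2 places in the Cd68 window on the other strand, where it reads TGAGTCA, from 149 to 143 and from 24 to 18 bases before the start. The Lipa window held none of the 4 motifs. Of all 32851 promoter windows of this length, 6.02% held CACGTG, 0.24% the CLEAR element, 2.44% the PU.1 motif and 4.46% the AP-1 motif. The windows of Lipa and Cd68 held 58.0% and 49.2% G and C, against a median of 52.4% over all windows.

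All 4 genes had their lowest group mean in CD34- cells of the low-fat diet and their highest in CD34+ cells of the high-fat diet. The single highest value of each was in the same library, replicate 3 of the high-fat CD34+ samples, which was also the deepest. Their lowest values were all in low-fat CD34- libraries, in replicate 2 for Lipa and Ctsb, in replicate 3 for Ctsl and in replicate 1 for Cd68. From the lowest to the highest library the values spanned 4.8-fold for Lipa and Ctsb, 8.2-fold for Ctsl and 3.8-fold for Cd68.

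Lipa, the lipase, had log2 values of 8.99, 8.93 and 9.59 in low-fat CD34- replicates 1 to 3 and of 9.76, 9.40 and 10.23 in low-fat CD34+ replicates 1 to 3. On the high-fat diet its log2 values were 9.73, 9.41 and 9.79 in the CD34- samples and 10.64, 10.18 and 11.18 in the CD34+ samples. The high-fat CD34+ samples all lay above the high-fat CD34- samples, while the other groups that share a diet or a population overlapped. The group means were 9.17 ± 0.37 (SD, n = 3) in low-fat CD34-, 9.64 ± 0.21 in high-fat CD34-, 9.79 ± 0.42 in low-fat CD34+ and 10.67 ± 0.50 in high-fat CD34+ cells. The middle groups of this order, high-fat CD34- and low-fat CD34+, differed by 0.15, less than their SDs.

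Ctsb, the gene of cathepsin B, had log2 values of 10.14, 9.99 and 10.51 in the low-fat CD34- samples and of 10.999, 10.66 and 11.32 in the low-fat CD34+ samples. On the high-fat diet its values were 11.02, 11.04 and 11.04 in the CD34- samples and 11.35, 11.50 and 12.26 in the CD34+ samples. It was the member whose groups were kept apart in every comparison of diet or population, with no overlap in any of the 4. Its means were 10.21 ± 0.27 (SD, n = 3) in low-fat CD34-, 10.99 ± 0.33 in low-fat CD34+, 11.03 ± 0.015 in high-fat CD34- and 11.70 ± 0.49 in high-fat CD34+ cells. The low-fat CD34+ and high-fat CD34- means differed by 0.04, and these groups overlapped.

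Ctsl, the gene of cathepsin L, had the widest spread of any group, among the high-fat CD34+ samples. Its log2 values were 7.30, 6.99 and 6.43 in the low-fat CD34- samples and 8.19, 7.27 and 7.72 in the low-fat CD34+ samples. On the high-fat diet they were 7.59, 7.82 and 8.07 in the CD34- samples and 7.70, 8.75 and 9.47 in the CD34+ samples. The diets did not overlap in CD34- cells, and the other pairs of groups that share a diet or a population did, with high-fat CD34+ replicate 1 lying within the range of the high-fat CD34- samples. Its means were 6.91 ± 0.44 (SD, n = 3), 7.73 ± 0.46, 7.83 ± 0.24 and 8.64 ± 0.89 in low-fat CD34-, low-fat CD34+, high-fat CD34- and high-fat CD34+ cells, and none of the neighbours in this order was separated without overlap.

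Cd68 had log2 values of 9.74, 9.94 and 10.005 in the low-fat CD34- samples and of 10.75, 10.08 and 11.04 in the low-fat CD34+ samples. On the high-fat diet its values were 10.95, 10.47 and 10.65 in the CD34- samples and 11.60, 10.89 and 11.69 in the CD34+ samples. The low-fat CD34- samples lay below both the low-fat CD34+ and the high-fat CD34- samples, while the high-fat CD34+ samples overlapped with the 2 groups that share their diet or population. The means were 9.90 ± 0.14 (SD, n = 3) in low-fat CD34-, 10.62 ± 0.49 in low-fat CD34+, 10.69 ± 0.24 in high-fat CD34- and 11.39 ± 0.44 in high-fat CD34+ cells, and the middle groups differed by 0.07, less than their SDs.

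**Figure D1:**
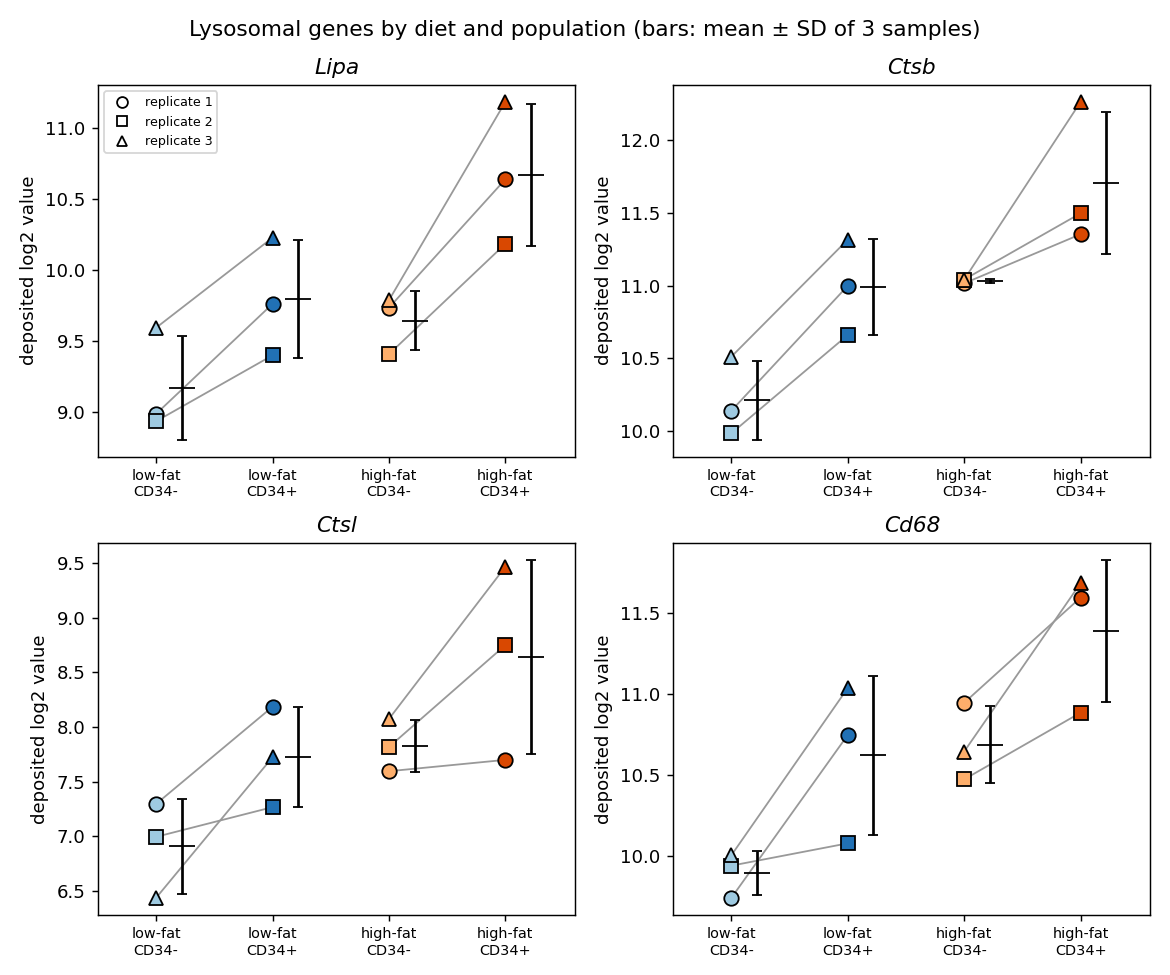
Deposited log2 values (vertical axes) of Lipa, Ctsb, Ctsl and Cd68 in the 4 groups of diet and population (horizontal axes). Symbols are samples, with 1 shape per replicate number, grey lines join same-numbered samples of a diet, and bars are the mean ± SD of 3 samples. Every grey line rises from the CD34- to the CD34+ sample, and the high-fat CD34+ group has the highest mean in each panel.

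In 6 of 6 same-numbered pairs, each of the 4 genes had its lower value in the CD34- sample. Of the 594 genes that passed a filter on low values, 77 (13.0%) were lower in all 6 pairs. The CD34- minus CD34+ differences of Lipa on the log2 scale were -0.90, -0.78 and -1.40 for high-fat mice 1 to 3 and -0.77, -0.46 and -0.63 for low-fat mice 1 to 3. Those of Ctsb were -0.34, -0.46 and -1.22 on the high-fat and -0.86, -0.67 and -0.80 on the low-fat diet. Both genes thus had their widest gap in high-fat mouse 3, and so did Ctsl and, narrowly (-1.04 against -1.03), Cd68. The CD34+ library of this mouse was the deepest. Ctsl differed by -0.10, -0.93 and -1.39 in the high-fat mice and by -0.89, -0.27 and -1.29 in the low-fat mice, so that 1 high-fat mouse was close to no difference. Cd68 differed by -0.65, -0.41 and -1.04 in the high-fat mice and by -1.01, -0.14 and -1.03 in the low-fat mice, with the smallest gap in low-fat mouse 2.

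Differences between groups were tested with limma, a linear model fitted to all 594 genes with p-values adjusted over all of them by the Benjamini-Hochberg method, and an adjusted p under 0.05 passed. On the high-fat diet Lipa was lower in CD34- cells, 2.04-fold, with a log2 difference of -1.03 ± 0.30 (SE, 3 against 3 samples, adjusted p = 0.0479). Ctsb differed by -0.67 ± 0.26 (adjusted p = 0.129), Ctsl by -0.81 ± 0.41 (0.25) and Cd68 by -0.70 ± 0.28 (0.135), and none of these passed. Of all genes 8.92% passed in this comparison and 2.02% passed as lower in CD34- cells, and the median difference was -0.76 over the 4 genes and 0.22 over all genes. With the mouse as a block, Lipa (adjusted p = 0.00225), Ctsb (0.0203) and Cd68 (0.0261) were lower and Ctsl was not past the threshold (0.0621), while 7.24% of all genes passed as lower. The call for Lipa lay close to the threshold without the block. It was lost without CD34- replicate 1 (adjusted p = 0.128), 2 (0.19) or 3 (0.0737) and without CD34+ replicate 1 (0.0899) or 3 (0.22), and the difference was -0.77 without the last of these. It was also lost with no filter (adjusted p = 0.0552), with no mean-variance trend (0.0773), with the 2 groups fitted alone (0.0563) and with scaling to total counts (0.0667).

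Without high-fat CD34+ replicate 2, which held the most RNA of fibroblast marker genes, Cd68 also passed on the high-fat diet (-0.95, adjusted p = 0.0447) and Lipa remained past the threshold (-1.27, 0.0232). The authors' deposited table for this comparison lists 135 genes and holds Lipa, Ctsb and Cd68, each under the authors' cluster number 1, and not Ctsl. The groups did not overlap for Lipa and Ctsb, beside 8.42% of all genes that were lower in every CD34- sample.

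On the low-fat diet none of the 4 genes passed without the block. The log2 differences of CD34- minus CD34+ cells were -0.62 ± 0.30 (SE, adjusted p = 0.23) for Lipa, -0.78 ± 0.26 (0.0771) for Ctsb, -0.82 ± 0.41 (0.254) for Ctsl and -0.73 ± 0.28 (0.122) for Cd68. With the mouse as a block, Lipa (adjusted p = 0.04), Ctsb (0.00914) and Cd68 (0.0206) were lower in CD34- cells and Ctsl was not past the threshold (0.0619). Of all genes 9.76% passed in either direction without the block, 7.07% passed as lower without it and 15.8% with it, and the median difference was -0.75 over the 4 genes and -0.14 over all. Without low-fat CD34+ replicate 2, Cd68 passed with no block too (-0.997, adjusted p = 0.0403). Ctsb and Cd68 did not overlap between the populations, beside 18.9% of all genes that were lower in every CD34- sample. The authors' deposited table for this comparison lists 31 genes and none of the 4.

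The population differences did not pass a test of their difference between the diets. The difference of differences, high-fat minus low-fat, was -0.40 ± 0.42 (SE, 95% interval -1.30 to 0.50, adjusted p = 0.828) for Lipa. It was 0.11 (-0.68 to 0.90, adjusted p = 0.966) for Ctsb, 0.01 (-1.23 to 1.24, 0.998) for Ctsl and 0.03 (-0.82 to 0.87, 0.994) for Cd68. Of the 594 genes limma called 0 here, with 52 at an unadjusted p under 0.05, and 1.18% passed once the mouse was a block. Each interval reaches 0.50 or more in both directions.

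Averaged over both diets with the mouse as a block, a contrast added after the data had been seen, all 4 genes were lower in CD34- cells. The log2 difference was -0.82 ± 0.15 (SE, 95% interval -1.13 to -0.51, adjusted p = 0.000453) for Lipa, a 1.77-fold lower level. Ctsb was 1.65-fold lower (-0.72 ± 0.14, -1.02 to -0.43, adjusted p = 0.000722) and Cd68 1.64-fold lower (-0.71 ± 0.15, -1.03 to -0.40, 0.00162). Ctsl was 1.76-fold lower (-0.81 ± 0.21, -1.26 to -0.36, adjusted p = 0.00756). Without high-fat CD34+ replicate 2 and the shallowest library together, Lipa, Ctsb and Cd68 stayed past the threshold and Ctsl did not (-0.67, adjusted p = 0.0692), nor did Ctsl pass in a fit with no block (0.0638). In this contrast 33.8% of all genes passed and 18.5% passed as lower, and the median difference was -0.77 over the 4 genes and 0.02 over all genes.

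The diet comparison asked whether the genes differed with the obesity-inducing diet within a sorted population. All 4 means were higher on the high-fat diet in both populations, and none of the differences passed in the fit to all genes, with or without the mouse as a block. With the block 2.36% of all genes passed as higher in CD34+ cells and 5.39% in CD34- cells. In CD34+ cells the log2 differences of high-fat minus low-fat were 0.87 ± 0.30 (SE, 3 against 3 samples, adjusted p = 0.145) for Lipa, 0.71 ± 0.26 (0.168) for Ctsb, 0.91 ± 0.41 (0.263) for Ctsl and 0.77 ± 0.28 (0.168) for Cd68. All 4 had an unadjusted p under 0.05 there, and of all 594 genes 104 had such a p. After adjustment 2.36% of all genes passed and 1.68% passed as higher. The median difference was 0.82 over the 4 genes and -0.01 over all. Without high-fat CD34+ replicate 2 and the shallowest library together, Lipa (1.12, adjusted p = 0.0317) and Cd68 (1.02, 0.0404) passed. Over all genes 54 then passed in either direction, against 14 with all samples. Ctsb alone did not overlap between the diets in CD34+ cells, beside 8.42% of all genes that were higher in every high-fat sample. The authors' deposited table for this comparison lists 7 genes and none of the 4.

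In CD34- cells the log2 differences of high-fat minus low-fat were 0.47 ± 0.30 (SE, adjusted p = 0.395) for Lipa, 0.82 ± 0.26 (0.0781) for Ctsb, 0.92 ± 0.41 (0.201) for Ctsl and 0.79 ± 0.28 (0.104) for Cd68. Here 5.05% of all genes passed, all of them higher. Ctsb, Ctsl and Cd68 did not overlap between the diets, beside 28.3% of all genes that were higher in every high-fat sample, and the median difference was 0.81 over the 4 genes and 0.34 over all. The authors' deposited table for this comparison lists 117 genes and holds Ctsb and Cd68, both under the authors' cluster number 1, and neither Lipa nor Ctsl. Groups of 3 samples allow no p under 0.1 in an exact permutation test, and none was run on single genes.

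Averaged over both populations, again a contrast added after the data had been seen, the high-fat minus low-fat differences were 0.67 ± 0.24 (SE, 95% interval 0.17 to 1.17, adjusted p = 0.117) for Lipa and 0.77 ± 0.22 (0.30 to 1.24, 0.0578) for Ctsb. They were 0.92 ± 0.34 (0.19 to 1.65, adjusted p = 0.144) for Ctsl and 0.78 ± 0.24 (0.27 to 1.29, 0.0715) for Cd68. None passed, while 5.22% of all genes passed and 5.05% passed as higher. In a fit with no block Ctsb (adjusted p = 0.0167) and Cd68 (0.0206) passed. That fit counts the CD34+ and CD34- samples of a mouse as independent, which overstates the number of independent samples behind a diet difference. Some calls depended on a single library. Ctsb passed without low-fat CD34- replicate 3 (0.81, adjusted p = 0.0424), low-fat CD34+ replicate 3 (0.82, 0.0493), high-fat CD34+ replicate 2 (0.82, 0.0402) or high-fat CD34+ replicate 1 (0.85, 0.0393). Cd68 passed without low-fat CD34+ replicate 3 (0.87, adjusted p = 0.0414) or high-fat CD34+ replicate 2 (0.88, 0.0278), and Ctsl without high-fat CD34+ replicate 1 (1.13, 0.0425).

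**Figure D2:**
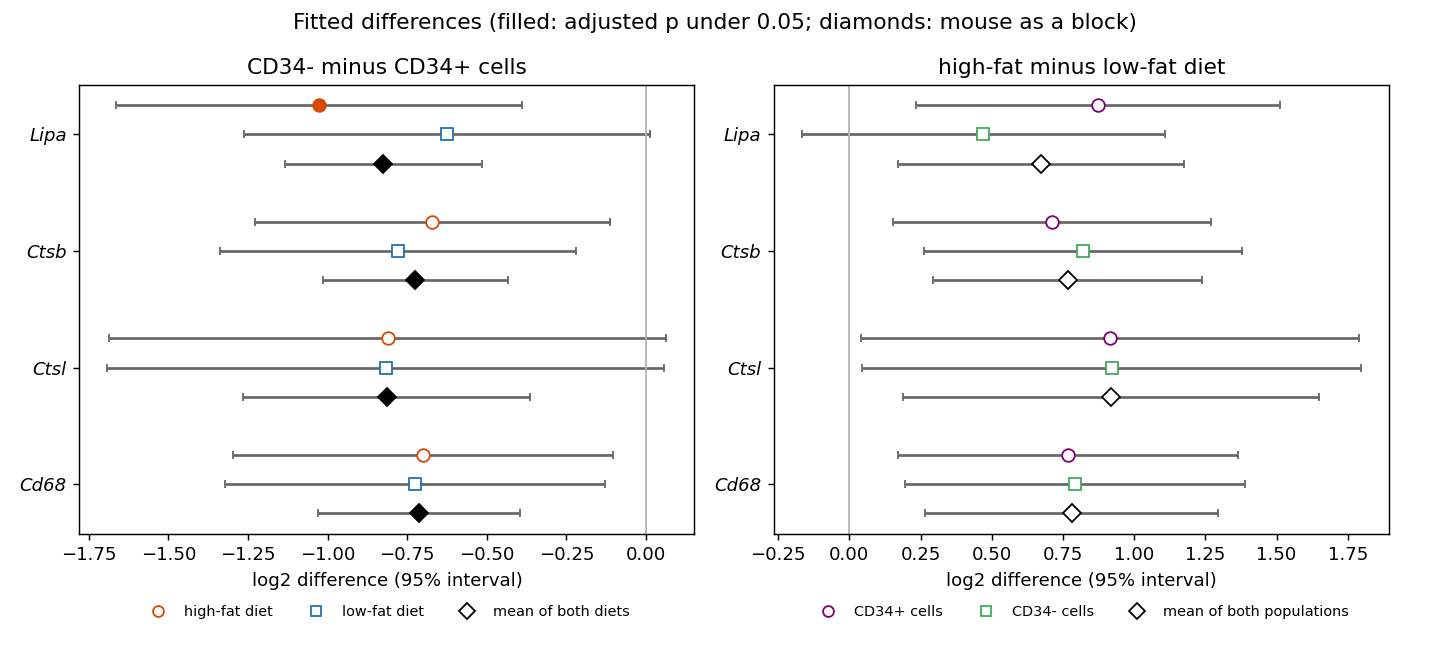
Log2 differences (horizontal axes) of the 4 genes with 95% intervals from limma, CD34- minus CD34+ cells on the left and high-fat minus low-fat diet on the right. Circles and squares are single diets or populations without the block, diamonds are averages over both with the mouse as a block, and filled symbols have an adjusted p under 0.05. The 4 averages on the left and Lipa on the high-fat diet (-1.03) are filled, and no symbol on the right is.

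The values of the 4 genes were compared with each other over the 12 samples, which share depth, diet and population, so correlations are given as descriptions. Pearson's r was 0.938 between Lipa and Ctsb, 0.934 between Lipa and Cd68 and 0.908 between Ctsb and Cd68. Ctsl was less like the others, with r of 0.853 to Ctsb, 0.725 to Cd68 and 0.722 to Lipa. After each group mean was subtracted, Lipa still followed Ctsb (0.858) and Cd68 (0.825), while Ctsb was at 0.583 to Cd68. Ctsl was then at 0.511 to Ctsb, 0.169 to Lipa and 0.078 to Cd68. Among all 594 genes, the 3 with values most like Lipa were Ctsb, Cd68 and Ptafr (0.914). For Ctsb they were Lipa, Igf1 (0.935) and Tlr2 (0.932), for Cd68 they were Lipa, Fnip2 (0.932) and Ctsb, and for Ctsl they were App (0.922), Cyfip1 (0.885) and Cd14 (0.857). Within groups the most alike to Lipa were Tlr2 (0.952), Irf4 (0.946) and Acsl4 (0.943), and to Ctsb they were Irf4 (0.946), Tnfsf14 (0.91) and Ctsd (0.908). For Ctsl these were App (0.833), Cyfip1 (0.827) and Ap2s1 (0.813), and for Cd68 they were Csf1r (0.88), Oasl1 (0.831) and Tgfb1i1 (0.83).

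Of 59 further lysosomal genes listed from general knowledge, the panel held 4, namely Ctsd, Ctsw, Lgmn and Npc1. Between the populations, averaged over both diets, the differences of Ctsd (-0.40), Lgmn (-0.91) and Npc1 (-0.17) were negative and that of Ctsw was positive. Lgmn, which encodes legumain, an asparaginyl endopeptidase that processes cathepsins, was lower in CD34- cells over both diets (-0.91 ± 0.20, adjusted p = 0.00265), a call that quantile normalisation ended (-0.72, 0.0599). Its log2 values were 9.65, 9.79 and 8.24 in low-fat CD34-, 11.06, 10.30 and 10.12 in low-fat CD34+, 11.09, 10.19 and 10.90 in high-fat CD34- and 11.56, 10.69 and 11.62 in high-fat CD34+ replicates 1 to 3. All low-fat CD34- samples lay below the other 9. In CD34- cells Lgmn differed between the diets by 1.501 ± 0.42 (adjusted p = 0.054) and passed when the mouse was a block (0.0306) or without high-fat CD34- replicate 2 (1.77, 0.045).

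Ctsw, a cathepsin gene of natural killer and cytotoxic T cells, ran opposite to the 4 genes between the populations. It was higher in CD34- cells by 3.19 ± 0.50 on the log2 scale on the high-fat diet (adjusted p = 0.0125), by 3.09 ± 0.50 on the low-fat diet (0.00213) and by 3.14 ± 0.24 over both (4.51e-07). Its lowest CD34- log2 value was 7.39 and its highest CD34+ value 5.86, so the populations were fully apart. The high-fat call was lost without CD34- replicate 1 (adjusted p = 0.0731) or 2 (0.0502). Ctsd, the aspartic protease gene of cathepsin D, differed between the populations by -0.75 on the high-fat (adjusted p = 0.415) and by -0.04 on the low-fat diet (0.977). Npc1, whose product moves cholesterol out of the lysosome, differed by -0.17 between the populations (adjusted p = 0.47) and by 0.46 between the diets (0.392), both averaged. Of 24 listed genes that control lysosomes and autophagy the panel held 3, Map1lc3a, Mtor and Pik3c3, and 0 passed in any of these limma comparisons, with at most 1 at an unadjusted p under 0.05. The smallest adjusted p in these was that of Map1lc3a between the diets in CD34- cells (0.86 ± 0.33, adjusted p = 0.129). Of 11 listed cathepsin inhibitor genes the panel held 0.

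Lipa acts on lipid that other proteins bring into the cell, and 11 of 24 listed genes of cholesterol and fatty acid handling in macrophages were on the panel. Over both diets 6 of the 11 were lower in CD34- cells and 0 higher, with a median difference of -0.54, beside 18.5% of all genes that passed as lower. Among them were Lpl, the lipoprotein lipase gene (-2.61 ± 0.28, adjusted p = 6.48e-06), Fabp5, a fatty acid binding protein gene (-1.74 ± 0.17, 3.65e-06), Cd36, a fatty acid and lipoprotein receptor gene (-1.08 ± 0.24, 0.00236), and Abca1, a cholesterol export gene (-0.86 ± 0.16, 0.000768). Between the diets, over both populations, 5 of the 11 were higher and 0 lower, with a median of 0.68, beside 5.05% of all genes that passed as higher. Fabp4 differed by 2.32 (adjusted p = 0.00456), Lpl by 2.09 (0.0127), Pparg by 1.79 (0.00456) and Cd36 by 1.60 (0.0224), and the fifth was Lrp1. In CD34- cells alone, 4 of the 11 were higher on the high-fat diet, and in CD34+ cells 1 was, Fabp4 (1.89, adjusted p = 0.0409). Of all genes 5.05% passed as higher in CD34- cells and 1.68% in CD34+ cells. Without high-fat CD34+ replicate 2 and the shallowest library together these counts were 5 lower between the populations, 5 higher between the diets, 5 higher in CD34- and 4 higher in CD34+ cells. Calls between the diets over all genes, in either direction, then also rose, from 30 to 49 in CD34- cells and from 14 to 54 in CD34+ cells.

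Cd68 is itself a macrophage marker, and 3 of 15 other listed macrophage markers were on the panel, Csf1r, Cd14 and Cd163. On the high-fat diet Csf1r, which encodes a receptor that macrophages need to survive, differed by 0.03 between the populations (adjusted p = 0.959), while Cd14 differed by -0.87 (0.197) and Cd163 by -1.03 (0.125), and the last 2 passed as lower with the mouse as a block (0.0371 and 0.0216). On the low-fat diet Cd163 was lower in CD34- cells (-2.53, adjusted p = 0.00156), where 7.07% of all genes passed as lower. Cd14 (-0.87, adjusted p = 0.191) and Csf1r (-0.57, 0.24) did not pass there, and with the block Cd14 did (0.0354). Over both diets Csf1r differed by -0.27 ± 0.14 (adjusted p = 0.167), while Cd14, a receptor subunit for bacterial lipopolysaccharide, was lower (-0.87 ± 0.20, 0.0032), as was Cd163, a haemoglobin scavenger receptor (-1.78 ± 0.21, 1.57e-05). Over both populations Csf1r was higher on the high-fat diet by 1.13 ± 0.23 (adjusted p = 0.00858) and Cd14 by 1.71 ± 0.32 (0.00456). In CD34- cells all 3 passed as higher on the high-fat diet, Cd14 by 1.71 (adjusted p = 0.0209), Cd163 by 1.55 (0.0337) and Csf1r by 1.43 (0.0119), beside 5.05% of all genes. In CD34+ cells Cd14 passed as higher too (1.70, adjusted p = 0.0409), beside 1.68% of all genes. Csf1r (0.83, adjusted p = 0.138) and Cd163 (0.05, 0.957) did not pass in CD34+ cells. The summed linear level of Cd68 and these 3 genes ran from 2343 to 2638 in low-fat CD34-, from 2882 to 5377 in low-fat CD34+, from 4757 to 7564 in high-fat CD34- and from 6868 to 11350 in high-fat CD34+ libraries. This sum was lowest and highest in the same groups as the means of the 4 genes. Cd68 is part of both, so this likeness is partly built in.

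Markers of several other cell types moved with the populations as well. The summed linear level of 13 of 16 listed T and NK cell markers ran from 3621 to 17300 in low-fat CD34- and from 3673 to 7084 in high-fat CD34- libraries, against 1452 to 2731 in low-fat CD34+ and 447.4 to 1444 in high-fat CD34+ libraries. Of the 12 tested, 11 were higher in CD34- cells over both diets, with a median of 2.64, beside 15.3% of all genes that passed as higher there. All 3 B cell markers tested were higher too, with a median of 2.09, and so was Ptprc, the gene of CD45 (0.65 ± 0.10, adjusted p = 0.000133). Of 11 listed neutrophil markers 4 were tested and all 4 were higher in CD34- cells over both diets. In the other direction, the panel held 5 of 11 listed fibroblast markers, all matrix genes. All 5 were lower in CD34- cells over both diets, with a median of -2.09, beside 18.5% of all genes that passed as lower. Their sum ran from 224.4 to 699.3 in low-fat CD34-, from 1134 to 4916 in low-fat CD34+, from 1920 to 2722 in high-fat CD34- and from 6199 to 10640 in high-fat CD34+ libraries. These sums too were lowest in low-fat CD34- and highest in high-fat CD34+ libraries. Without high-fat CD34+ replicate 2 and the shallowest library together, 10 of the T and NK cell, 4 of the neutrophil and 5 of the fibroblast markers passed in those directions. Over the alternatives other than single samples left out, this one among them, 113 to 241 of all genes passed between the populations over both diets, in either direction. Other lists moved less with the populations over both diets. Of 4 endothelial markers 1 was higher in CD34- cells (median 0.01), and 0 of 2 mast cell markers passed. The 4 dendritic cell markers on the panel were Ccr7, Ciita and the MHC class II genes H2-Ab1 and H2-Aa, and 2 of them were lower (median -0.35). Without the 2 libraries 1 of these 4 was higher and 1 lower (median -0.11). Between the diets over both populations the endothelial median was 1.07, with 0 of 4 past the threshold. The sum of 4 of 7 fat cell markers ran from 144.2 to 523.1 over the low-fat and from 832 to 1477 over the high-fat libraries. Of the 3 tested, Fabp4 and Pparg, given above among the lipid genes, passed as higher on the high-fat diet over both populations, while Adipoq, the gene of the fat cell hormone adiponectin, differed by -0.05 (adjusted p = 0.984). None of the listed markers on the panel was at the lowest possible count in all 3 samples of a group, and the part of these cells in the differences of Lipa, Ctsb, Ctsl and Cd68 was not tested.

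**Figure D3:**
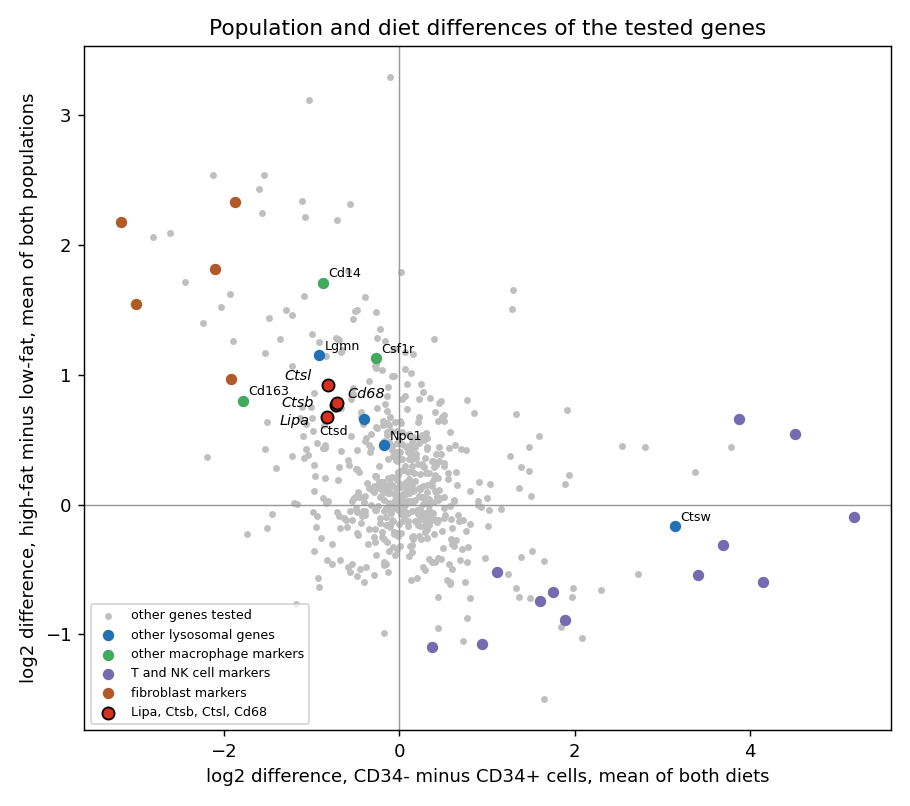
Log2 differences of the 594 tested genes between populations, averaged over diets (horizontal axis, CD34- minus CD34+), and between diets, averaged over populations (vertical axis, high-fat minus low-fat), from the fit with the mouse as a block. Each point is a gene and coloured points are members of the listed groups. Lipa, Ctsb, Ctsl and Cd68 lie together at -0.82 to -0.71 and 0.67 to 0.92, near Lgmn, while Ctsw lies with the T and NK cell markers on the right and the fibroblast markers lie further to the upper left.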

How the data were processed

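RNA of 12 samples was amplified with the NanoString Low RNA Input kit and counted on nCounter, per the labels. The deposited table gives log2 values of 760 genes, normalised per sample by the authors, and the basis of that scaling is not stated here. Each column is log2 of a whole number plus 1 constant: values under 300 counts were whole within 0.02 in every sample. The authors' 4 deposited tables of selected genes hold gene-centred log2 values and a cluster number (unit other, the authors' numbering).

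Genes were kept when 3 or more samples had a linear value of 20 or more, and these 594 were fitted in limma 3.58.1 (R 4.3.3, statmod 1.5.0) with 4 group means and a mean-variance trend, two-sided, Benjamini-Hochberg adjusted, threshold 0.05. The 166 other genes were left out. Deviations from group means correlated at 0.306 to 0.434 in the 6 same-numbered pairs of a diet and at -0.375 to 0.143 in the 12 others, so the mouse was also used as a random block (within-mouse correlation 0.448). The averaged contrasts, scaling to total counts, leaving out 2 libraries together and the block with re-centring were added after the data had been seen. Members and gene lists were chosen with earlier results of these data known. From each list, up to 4 passing genes with the largest difference, or up to 2 with the smallest p, were named. P-values set a difference of group means against the spread of these samples within groups, and fits without the block ignore the pairing by mouse. Counting error leaves out amplification. Symbols matched the RefSeq gene table for 748 genes, a synonym for 9, and had no match for 3.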

Additional observations from a re-analysis of the deposited data

How the results depend on the processing

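All differences of Lipa, Ctsb, Ctsl and Cd68 between populations or diets, single or averaged, kept their direction under each alternative run. These were the replicate block, no filter, re-centring on the median, quantile normalisation, no mean-variance trend, voom on recovered counts, the compared groups alone, leaving out each sample, scaling to total counts, leaving out 2 libraries together (low-fat CD34- replicate 3 and high-fat CD34+ replicate 2), and the block with re-centring. The low counts of Ctsl and the 3 samples per group limit the precision. Where a call changed, the cause was not tested.

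Lipa on the high-fat diet (CD34- minus CD34+) lost its call with no filter (-1.03, adjusted p = 0.0552), no trend (-1.03, 0.0773), the compared groups alone (-1.03, 0.0563) and total-count scaling (-0.90, 0.0667), and ran from -1.27 to -0.77 with each sample left out. With the mouse as a replicate block Ctsb (-0.67) and Cd68 (-0.70) passed there, and with re-centring they did so at -0.95 (0.0386) and -0.98 (0.0416). The block with re-centring gave -0.95 (0.0054) for Ctsb, -1.09 (0.0322) for Ctsl and -0.98 (0.00595) for Cd68. Without the 2 libraries Cd68 was at -0.95 (0.0351), and with each sample left out it ran from -0.95 to -0.55. The number of the 4 genes that passed, 1 in the fit as reported, was 3 with the block, 3 with re-centring, 4 with both, 2 without the 2 libraries, 0 with no filter, no trend, the compared groups alone or total-count scaling, and 0 to 2 with each sample left out.

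On the low-fat diet the block gave calls for Lipa (-0.62), Ctsb (-0.78) and Cd68 (-0.73), and the block with re-centring for Ctsb (-0.73, 0.0266) and Cd68 (-0.68, 0.0471), so that 3 and 2 of the 4 passed against 0. With each sample left out Cd68 ran from -0.997 to -0.52 and the count from 0 to 1. The block changed no call of the 4 genes between the diets within CD34+ or within CD34- cells. Without the 2 libraries 2 of the 4 genes passed between the diets in CD34+ cells, Lipa (1.12) and Cd68 (1.02), beside 54 of all genes. In CD34- cells the compared groups alone gave 1 of the 4, Ctsb (0.82, 0.0499).

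The difference of the population differences never passed for Lipa, Ctsb, Ctsl or Cd68. For Lipa it stayed negative, from -0.644 to -0.145 with each sample left out and from -0.732 to -0.257 in the other settings. For Ctsb, Ctsl and Cd68 it changed sign in some settings. Ctsb was at -0.22 with re-centring, with and without the block, and from -0.067 to 0.39 with each sample left out. Ctsl was at -0.32 with re-centring, with and without the block, -0.27 with quantile normalisation, -0.11 with voom, -0.10 with total-count scaling, -0.17 without the 2 libraries and from -0.46 to 0.42 with each sample left out. Cd68 was at -0.30 with re-centring, with and without the block, -0.13 with quantile normalisation, -0.08 with total-count scaling, -0.17 without the 2 libraries and from -0.23 to 0.30 with each sample left out.

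For the populations averaged over diets, Ctsl lost its call without the 2 libraries (-0.67, 0.0692) and with no replicate block (-0.81, 0.0638), and all 4 genes passed with any single sample left out. For the diets averaged over populations, leaving out the 2 libraries gave calls for Lipa (0.84, 0.0269), Ctsb (0.87, 0.0252) and Cd68 (0.88, 0.0254). No replicate block gave calls for Ctsb (0.77, 0.0167) and Cd68 (0.78, 0.0206), and no filter for Ctsb (0.77, 0.0487), so that 3, 2 and 1 of the 4 passed against 0. The fit with no block counts the CD34+ and CD34- samples of a mouse as independent. With each sample left out Ctsb ran from 0.63 to 0.85, Ctsl from 0.74 to 1.13, Cd68 from 0.64 to 0.88 and the count from 0 to 2.

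Counts over all genes moved by more than 1.5 times as follows. Between the populations on the high-fat diet 53 became 142 with the block, 35 with no trend, 91 without the 2 libraries, 122 with block and re-centring, and 0 to 64 with each sample left out. On the low-fat diet 58 became 131 with the block, 34 with total-count scaling, 127 with block and re-centring, and 26 to 56. Between the diets in CD34+ cells 14 became 7 with quantile normalisation, 0 with no trend or the compared groups alone, 54 without the 2 libraries, and 0 to 29. In CD34- cells 30 became 17 with re-centring or voom, 13 with quantile normalisation or total-count scaling, 49 without the 2 libraries, and 4 to 31. The averaged population contrast gave 113 against 201 with no replicate block. The averaged diet contrast gave 17 with total-count scaling, 57 without the 2 libraries, 65 with no replicate block and 19 to 47 with each sample left out, against 31.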
